A study of Homo sapiens with 4 samples.

Results

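The 10 genes described here belong to the tumour necrosis factor (TNF) superfamily of ligands and the matching superfamily of receptors: the ligands TNF, LTB, TNFSF9 and TNFSF10, and the receptors TNFRSF1A, TNFRSF10A, TNFRSF21, TNFRSF10D, TNFRSF9 and TNFRSF12A. They were chosen by name, with earlier results of these data known. Every probe set whose platform annotation gave exactly 1 gene symbol, equal to one of these names, was kept, which gave 19 of the 54613 probe sets tested. A probe set is the group of short array probes that together report 1 transcript, and a gene can have several.

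TNF superfamily ligands are made as trimers on the cell surface, and some are cut free by proteases such as ADAM17. Receptors with a death domain can recruit FADD and CASP8 and start apoptosis, or recruit TRADD and TRAF adaptors and activate NF-kB and kinase cascades. Receptors without a death domain bind TRAF adaptors directly, and decoy receptors bind ligand without passing on a death signal. In squamous epithelium these ligands and receptors are known for roles in inflammation, in turnover of keratinocytes and in killing of tumour cells by TNFSF10, also called TRAIL.

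Total RNA came from CaSki, an established human papillomavirus-positive line of cervical squamous carcinoma, and was hybridized as biotin-labelled cRNA to Affymetrix HG-U133 Plus 2.0 arrays. The comparison addresses what changes when ZNF750, a transcription factor of squamous cells, is introduced. Lentivirus was used in both groups, 2 arrays with ectopic GFP as the control and 2 with ectopic ZNF750, and the growth medium is labelled as holding 0% serum in both. The labels do not say which promoter drove the inserts, whether cells were cloned, or how the duplicate cultures were made. The p-values therefore measure only the spread between these arrays, which the limma fit pools in part over probe sets. An exact two-sided permutation test of 2 arrays against 2 cannot go below 0.333 and was not used.

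The values are log2 RMA values, and array medians lay between 5.45 and 5.51. The Pearson correlation over probe sets was 0.9972 between the GFP arrays, 0.9968 between the ZNF750 arrays and 0.9922 to 0.9937 between groups; these are correlations across probe sets, which are not independent. The only ZNF750 probe set read 2.13 and 2.37 with GFP and 2.23 and 2.29 with ZNF750, near the lowest values of the table, so it does not show the inserted gene, and probe positions were not used here to say whether it could. ZNF750 arrays below means the arrays so labelled. ACTB and GAPDH control probes near the 3′ end read higher than those near the 5′ end, a gap that widens in degraded RNA. This ACTB 3′ minus 5′ gap averaged 2.92 (SD 0.15, n = 2) on the GFP arrays against 3.56 (SD 0.29, n = 2) on the others. The GAPDH gap averaged 0.62 (SD 0.0097, n = 2) on the GFP arrays against 0.82 (SD 0.037, n = 2) on the others. The part of these gaps in the results below was not tested. Of 9 markers chosen for a squamous epithelial line 7 were matched, among them KRT5, KRT14 and EPCAM. Their means over the 4 arrays ranged from 5.81 to 14.50. Of these 7, 3 were higher (KRT14 by 1.10, KRT5 by 0.24 and EPCAM by 0.18), 1 was lower (CDKN2A, -0.29) and 3 did not pass, a called share of 57.1% in the fit over genes, where 18.0% of all genes passed. The sum of their log2 values was 78.6 to 78.9 with GFP and 80.0 to 80.5 with ZNF750. Of 12 leukocyte markers 11 were matched; TNF, LTB and TNFRSF9 are also leukocyte genes. None of the 11 passed (limma; 2 were higher at an unadjusted p under 0.05), their means ranged from 3.95 to 6.75, and the sum of their log2 values was 54.8 to 55.7 with GFP and 56.3 on both ZNF750 arrays. The 5 fibroblast and 3 endothelial markers held 0 called genes (limma; 0 also at an unadjusted p under 0.05). All 5 fibroblast markers had positive differences, and their summed log2 values, 25.0 to 25.2 with GFP and 25.7 to 25.9 with ZNF750, did not overlap; the endothelial sums, 14.8 to 15.4 and 15.1 to 15.3, did. The arrays came without detection calls, so whether a dim probe set lay above background is not known.

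With ZNF750, 2 of the 19 probe sets were higher, 3 lower, and 14 did not pass (limma, adjusted over all probe sets, threshold 0.05). The called share was 26.3%, against 11.5% of all probe sets (4.30% higher and 7.19% lower). The genes were chosen with earlier results of these data known, so this share is not independent evidence. The called probe sets belonged to 4 genes: the ligands TNFSF10 and TNFSF9 were higher and the death domain receptors TNFRSF21 and TNFRSF10A were lower. The other 6 genes, TNF, LTB, TNFRSF1A, TNFRSF10D, TNFRSF9 and TNFRSF12A, had no called probe set. In bulk RNA, fewer cells expressing a gene and less RNA per cell cannot be told apart.

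**Figure D1:**
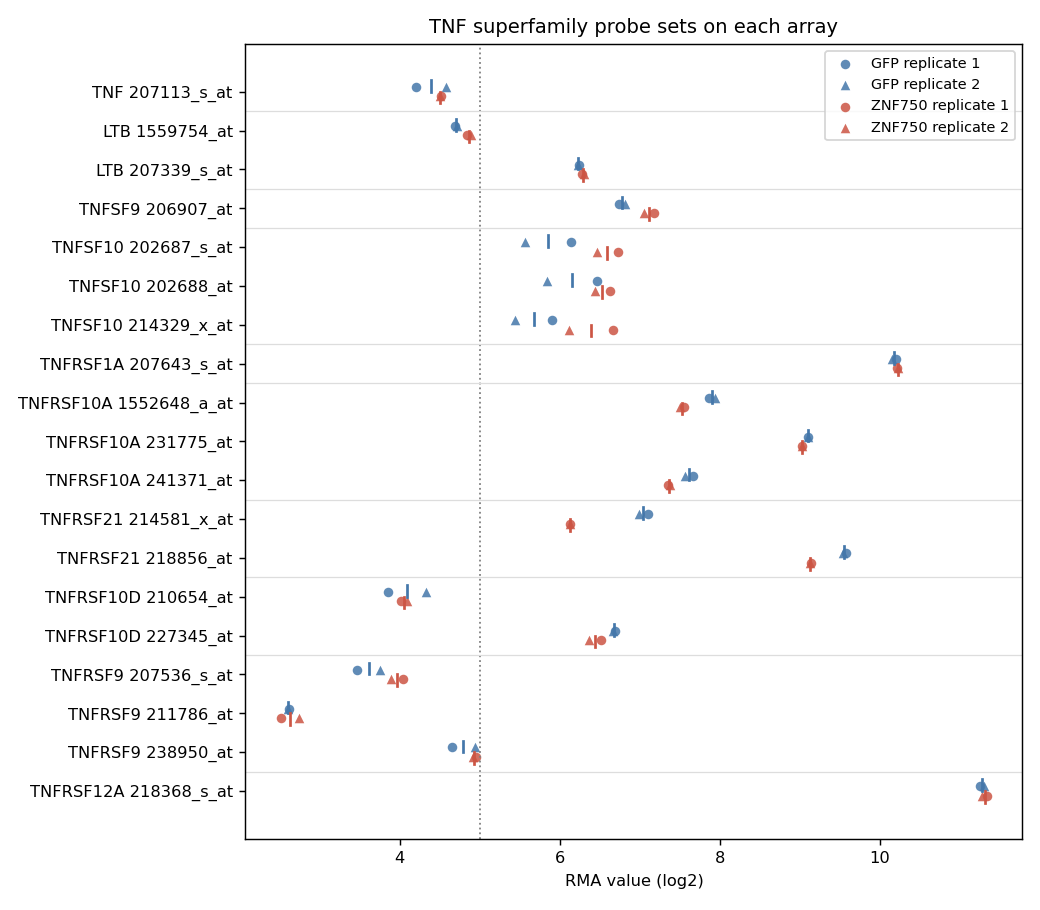
Log2 RMA value (x axis) of each of the 19 probe sets (y axis) on each array, in blue for GFP and red for ZNF750; circles are replicate 1, triangles replicate 2, short vertical bars group means, and the dotted line marks log2 5. Both TNFRSF21 probe sets and all 3 TNFRSF10A probe sets lie lower on both ZNF750 arrays, whereas the GFP arrays of TNFSF10 lie apart from each other; values of different probe sets are not comparable with each other.

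All 7 ligand probe sets had a positive difference, with a median of 0.34, and 2 of them passed. Of the 12 receptor probe sets 7 had a negative difference and 5 a positive one, with a median of -0.06, and 3 passed, all lower. Over all probe sets the median was 0.03 and 55.5% were positive. These medians describe the chosen probe sets, and a difference between ligands and receptors was not tested. Values of both arrays of one group lay beyond both of the other in 13 of the 19 probe sets, 7 higher and 6 lower, against 54.2% of all probe sets. Of the 19, 13 had a mean of at least 5 over the 4 arrays. The 6 dimmer ones were the TNF probe set, 1 of LTB, 1 of TNFRSF10D and all 3 of TNFRSF9, where RMA understates folds.

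**Figure D2:**
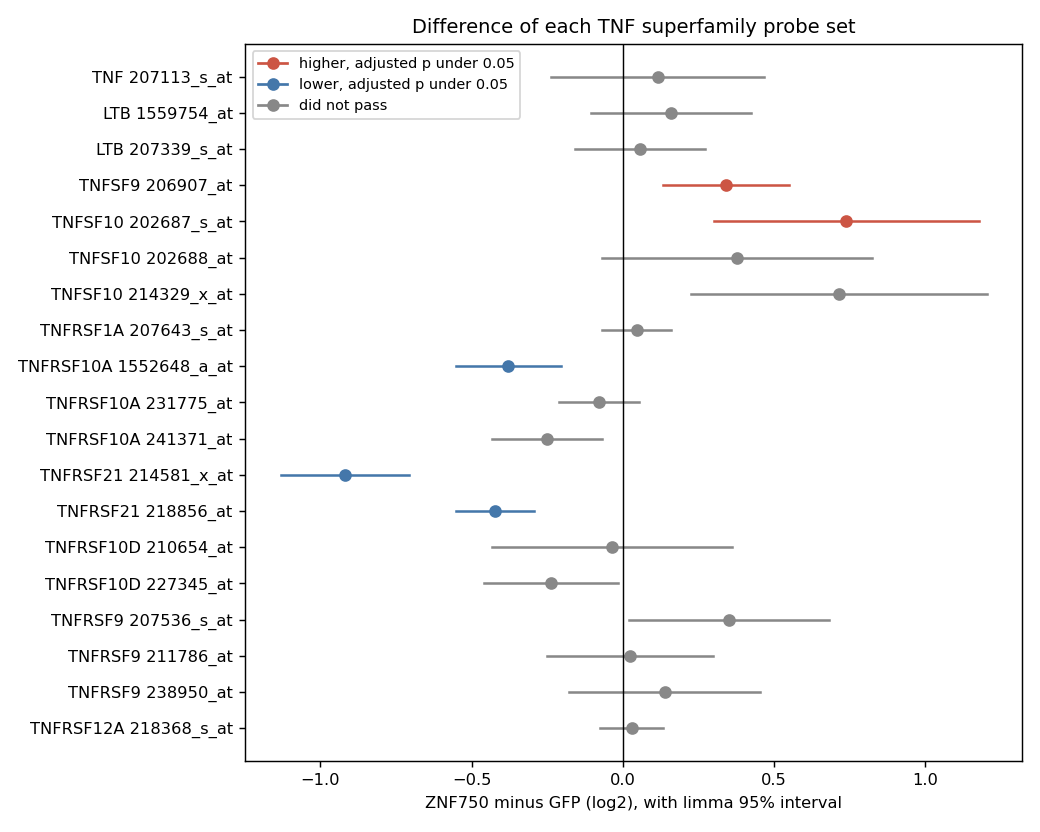
Difference ZNF750 minus GFP on the log2 scale (x axis) for each probe set (y axis), as a point with limma's 95% interval; red and blue mark probe sets that passed as higher and lower, grey those that did not pass. The widest intervals are those of TNFSF10, which reach from 0.30 to 1.18 on probe set 202687_s_at, and the interval farthest below 0 is that of TNFRSF21 on 214581_x_at, from -1.13 to -0.71.

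TNFSF10 encodes TRAIL, which induces apoptosis through TNFRSF10A and TNFRSF10B and is also bound by the decoys TNFRSF10C and TNFRSF10D. Its probe set 202687_s_at read 6.14 and 5.57 with GFP and 6.73 and 6.46 in the ZNF750 arrays, so the groups did not overlap although the GFP arrays differed by 0.57. The difference was 0.74 ± 0.19 (limma SE, n = 2 per group), or 1.67-fold, with an adjusted p of 0.0457. Probe set 214329_x_at gave 5.91 and 5.45 against 6.67 and 6.12, a difference of 0.72 ± 0.21 that did not pass (adjusted p = 0.072). Probe set 202688_at gave 6.46 and 5.84 against 6.62 and 6.44, groups that overlapped, and a difference of 0.38 ± 0.19 (interval -0.07 to 0.82, adjusted p = 0.262). All 3 probe sets thus put the first GFP array above the second, by 0.46 to 0.62, and the size of the TNFSF10 difference depended on that array. On 202687_s_at the difference was 1.03 without GFP replicate 1 (adjusted p = 0.13), 0.45 without GFP replicate 2 (0.237), 0.61 without ZNF750 replicate 1 (0.25) and 0.87 without ZNF750 replicate 2 (0.162). The mean of the 3 probe sets gave 0.61 and did not pass in a fit over genes (adjusted p = 0.0699).

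TNFSF9, the ligand of TNFRSF9 that costimulates T cells, had 1 probe set, 206907_at, with values of 6.74 and 6.81 with GFP and 7.18 and 7.05 in the ZNF750 arrays. The groups did not overlap, and the difference was 0.34 ± 0.089 (1.27-fold). It passed narrowly, with an adjusted p of 0.0498, and did not pass with a robust variance prior (0.0527) or without any 1 of the arrays: the difference was then 0.31 without GFP replicate 1 (0.287), 0.38 without GFP replicate 2 (0.199), 0.28 without ZNF750 replicate 1 (0.214) and 0.41 without ZNF750 replicate 2 (0.129). CD70, another ligand gene and the protein-coding neighbour of TNFSF9 in the RefSeq table, is named here after its values were seen; it differed by 0.05 and did not pass (adjusted p = 0.77).

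The ligands of the cluster in the major histocompatibility region showed smaller differences. TNF, the founding inflammatory cytokine of the family, lies between LTA and LTB in the RefSeq table. Its probe set 207113_s_at read 4.20 and 4.58 with GFP and 4.51 and 4.50 in the ZNF750 arrays, which lay inside the GFP range. The difference was 0.11 ± 0.15 (interval -0.24 to 0.47, adjusted p = 0.693), on a dim probe set. LTB anchors lymphotoxin alpha at the cell surface in a complex that binds LTBR. Its probe set 207339_s_at read 6.24 and 6.22 against 6.28 and 6.30, a difference of 0.06 ± 0.092 (adjusted p = 0.758), and 1559754_at read 4.69 and 4.72 against 4.84 and 4.89, a difference of 0.16 ± 0.11 (adjusted p = 0.424). Both LTB probe sets were higher on both ZNF750 arrays, and neither passed. The SD of 207339_s_at was 0.015 in each group, and that of 1559754_at 0.019 with GFP and 0.033 with ZNF750. The limma SEs of 0.092 and 0.11 also draw on the spread of other probe sets. LTA, the soluble lymphotoxin, differed by 0.02 ± 0.12 (adjusted p = 0.94 in the fit over genes).

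TNFRSF21 encodes a death domain receptor that activates NF-kB and JNK signalling, and its probe sets had the lowest adjusted p-values of the 19. Probe set 214581_x_at read 7.10 and 6.99 with GFP and 6.13 and 6.12 in the ZNF750 arrays, which was 1.89-fold lower (-0.92 ± 0.091, adjusted p = 0.00179). Probe set 218856_at read 9.58 and 9.54 against 9.15 and 9.12, which was 1.34-fold lower (-0.42 ± 0.055, adjusted p = 0.00448). The groups did not overlap on either. The sizes differed between the probe sets, whose 95% intervals, -1.13 to -0.71 and -0.55 to -0.29, did not overlap; the suffix _x_at marks a set whose probes may also bind other transcripts. Probe set 214581_x_at kept its call with the first ZNF750 array left out (-0.92, adjusted p = 0.0433) or the second (-0.92, 0.0468), but not without GFP replicate 1 (-0.87, 0.117) or GFP replicate 2 (-0.97, 0.0928). Probe set 218856_at did not pass with an array left out: it gave -0.40 without GFP replicate 1 (0.134), -0.44 without GFP replicate 2 (0.102), -0.43 without ZNF750 replicate 1 (0.0558) and -0.41 without ZNF750 replicate 2 (0.0668).

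TNFRSF10A encodes a death domain receptor for TRAIL. Probe set 1552648_a_at read 7.87 and 7.94 with GFP and 7.55 and 7.50 in the ZNF750 arrays, a fall of 0.38 on the log2 scale (SE 0.075, adjusted p = 0.0191). Probe set 241371_at read 7.66 and 7.57 against 7.35 and 7.38, a difference of -0.25 ± 0.078 that did not pass (adjusted p = 0.0867). Probe set 231775_at read 9.10 and 9.11 against 9.03 and 9.03, a difference of -0.08 ± 0.057 (interval -0.21 to 0.05, adjusted p = 0.43). The groups did not overlap on any of the 3, so the probe sets shared a direction but not a size, and the brightest, 231775_at, showed the smallest difference. The mean of the 3 gave -0.24 and passed in the fit over genes (adjusted p = 0.0285), whereas the gene read by 231775_at alone did not (0.361). The call on 1552648_a_at ended without any 1 of the arrays, at -0.42 without GFP replicate 1 (0.164), -0.34 without GFP replicate 2 (0.173), -0.40 without ZNF750 replicate 1 (0.0974) and -0.35 without ZNF750 replicate 2 (0.133).

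TNFRSF1A, the widely expressed death domain receptor for TNF, was read by 207643_s_at at 10.20 and 10.16 with GFP and 10.22 and 10.23 in the ZNF750 arrays. The difference was 0.05 ± 0.048 and did not pass (adjusted p = 0.616); its interval of -0.07 to 0.16 leaves out changes as large as those of TNFRSF21. The other receptor for TNF, TNFRSF1B, found mainly on leukocytes, differed by 0.33 ± 0.12 and did not pass (adjusted p = 0.109 in the fit over genes).

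The remaining receptors for TRAIL had no called probe set. TNFRSF10D, a decoy with a truncated death domain and the neighbour of TNFRSF10A in the RefSeq table, was read by 227345_at at 6.70 and 6.66 with GFP and 6.51 and 6.37 in the ZNF750 arrays. That difference was -0.24 ± 0.095 and did not pass (adjusted p = 0.162), although the groups did not overlap. Its other probe set, 210654_at, was dim, at 3.85 and 4.32 against 4.01 and 4.09, and differed by -0.04 ± 0.17 (adjusted p = 0.928). TNFRSF10B, the second death domain receptor for TRAIL, differed by -0.10 ± 0.058 (adjusted p = 0.293 in the fit over genes), with 4 probe sets between -0.18 and 0.08 of which 0 passed. TNFRSF10C, a decoy anchored by a lipid, differed by -0.01 ± 0.096 (adjusted p = 0.979), with 4 probe sets between -0.01 and 0.09 of which 0 passed. Side by side, the ligand TNFSF10 had 3 positive differences and TNFRSF10A 3 negative ones, of which 1 passed in each gene. Probe sets of a gene read the same arrays and are not replicates. Whether ligand and receptor differed from each other was not tested.

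Receptors without a death domain did not pass. TNFRSF9, the partner of TNFSF9 and a costimulatory receptor of T cells, had 3 dim probe sets. Of these 207536_s_at read 3.47 and 3.76 with GFP and 4.04 and 3.89 in the ZNF750 arrays, a difference of 0.35 ± 0.14 (adjusted p = 0.167) without overlap. The other probe sets overlapped: 238950_at differed by 0.14 ± 0.14 (adjusted p = 0.58) and 211786_at by 0.02 ± 0.12 (adjusted p = 0.933). TNFRSF12A, the receptor for TNFSF12 and a gene induced by growth factors and injury, was read by 218368_s_at at 11.26 and 11.31 against 11.34 and 11.29, groups that overlapped. Its difference was 0.03 ± 0.045, with an interval of -0.07 to 0.13 (adjusted p = 0.738). Its ligand TNFSF12 has no probe set with a single symbol and is not analysed here.

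**Figure D3:**
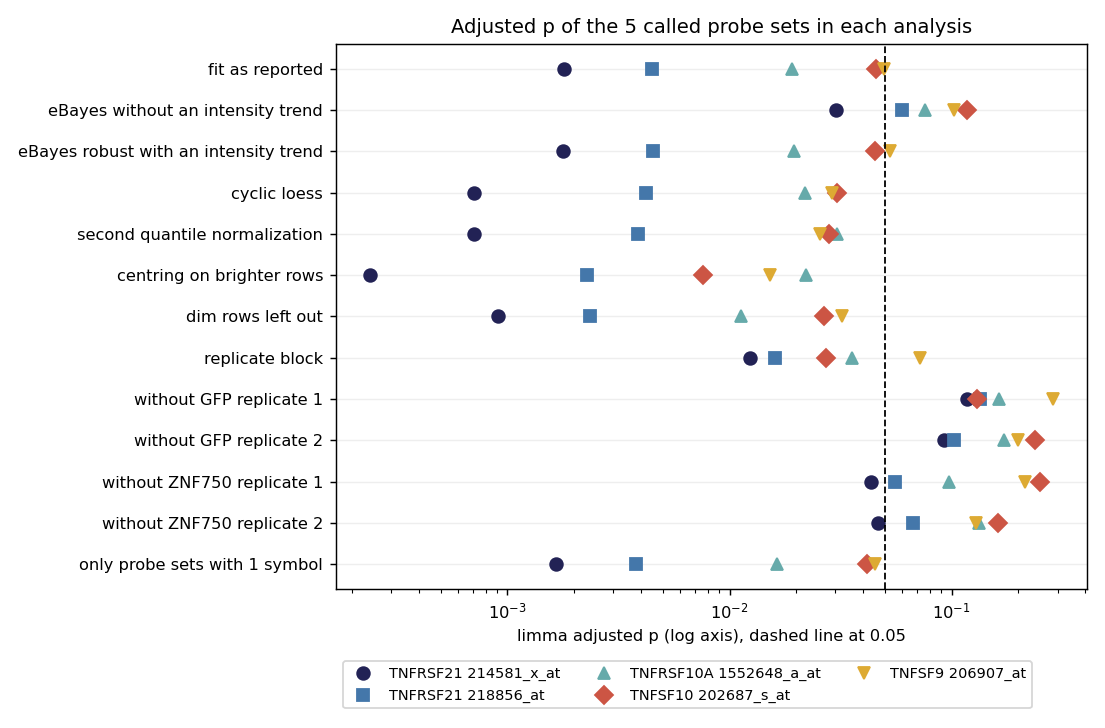
Limma adjusted p (x axis, log scale, dashed line at 0.05) of the 5 called probe sets (marker shape and colour) in the fit as reported and in each other analysis (y axis). Leaving out either GFP array moves all 5 markers to the right of the line, and leaving out either ZNF750 array leaves only TNFRSF21 214581_x_at on its left.

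The loss of calls with an array left out was shared with the whole table. Without GFP replicate 1, 10 of all probe sets were higher and 1 lower, and without GFP replicate 2, 8 and 1. With the first ZNF750 array left out the counts were 267 and 661, and with the second left out 236 and 416. None of the 5 called member differences changed sign in any of these fits. Without an intensity trend in the variance prior, only TNFRSF21 214581_x_at stayed called; the others had adjusted p-values of 0.06 (TNFRSF21 218856_at), 0.0757 (TNFRSF10A), 0.102 (TNFSF9) and 0.117 (TNFSF10).

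The sequences before the starts of the 3 genes with a called probe set that have an entry in the RefSeq promoter table are shown so that the motifs of the genes that were higher can be set beside those of TNFRSF21. They are the 250 bases upstream of the annotated start, 5′ to 3′ on the gene's strand, from RefSeq on GRCh38.p14. Capitals mark matches on either strand to any of 6 motifs: CCNNAGGC (described for ZNF750), the kappaB consensus, the AP-1 site TGANTCA, the GC box GGGCGG, the TATA box TATAAA and an interferon response core of GAAA repeats 2 bases apart.
TNFSF10 (chr3:172523431-172523680, - strand): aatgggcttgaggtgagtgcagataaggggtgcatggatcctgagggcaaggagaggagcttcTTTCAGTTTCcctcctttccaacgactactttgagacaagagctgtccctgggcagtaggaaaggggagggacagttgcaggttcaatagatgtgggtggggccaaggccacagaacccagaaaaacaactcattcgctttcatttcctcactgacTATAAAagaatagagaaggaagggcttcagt
TNFSF9 (chr19:6530776-6531025, + strand): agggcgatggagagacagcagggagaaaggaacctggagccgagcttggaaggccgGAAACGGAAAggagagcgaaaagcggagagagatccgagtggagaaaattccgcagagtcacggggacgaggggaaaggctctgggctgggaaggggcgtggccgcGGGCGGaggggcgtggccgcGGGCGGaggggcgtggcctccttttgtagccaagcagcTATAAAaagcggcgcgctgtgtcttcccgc
TNFRSF21 (chr6:47309906-47310155, - strand): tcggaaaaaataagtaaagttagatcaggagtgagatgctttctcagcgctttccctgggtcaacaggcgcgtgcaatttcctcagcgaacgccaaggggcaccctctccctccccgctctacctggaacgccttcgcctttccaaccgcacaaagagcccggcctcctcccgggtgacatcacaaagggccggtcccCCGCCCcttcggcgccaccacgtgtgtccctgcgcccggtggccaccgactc

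The windows of TNFSF10 and TNFSF9 each held 1 interferon response core, beginning 187 and 194 bases before the start, and 1 TATA box, at 31 and 30 bases. TNFSF9 also held 2 GC boxes. The TNFRSF21 window held 1 GC box and none of the other motifs. Of all 35116 windows of this length in the table, 3.02% held the interferon response core, 10.7% the TATA box and 42.6% the GC box. Of the 10 members 7 had a window; TNFRSF10A, TNFRSF10D and TNFRSF12A had none. The kappaB consensus, present in 9.96% of all windows, matched once before LTB, whose 2 windows in the table start 1 base apart and hold the same match, and at 2 overlapping positions in the TNFRSF9 window. TNFRSF9 also held an AP-1 site (6.57% of all windows) and a GC box. TNF held a TATA box and 2 GC boxes, and TNFRSF1A matched none of the 6 motifs. CCNNAGGC, present in 23.5% of all windows, was not found in these letters in any of the 7 members' windows. A match describes letters and shows neither binding nor a cause. No 2 of these motifs overlapped in the 3 sequences shown.

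The rest of the family, its adaptors and its response genes were counted in a fit over 19775 genes, each read by its brightest probe set, where 18.0% of genes passed (7.79% higher, 10.2% lower) and the median difference was 0.04. In that fit TNFSF9 was higher and TNFRSF21 lower among the 10 members, whose median was 0.05; TNFSF10 and TNFRSF10A did not pass, because the brightest probe set of each was not the called one. Of 14 other ligands 12 were matched, and 0 passed (limma, with 1 higher and 1 lower at an unadjusted p under 0.05), with a median of 0.10. Of these 12 ligands 7 were dim, with a mean under 5, and the brightest mean was 6.22. Of 23 other receptors 22 were matched, 0 were higher (limma; 2 at an unadjusted p under 0.05) and 1 was lower, with a median of 0.01.

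FAS was the other receptor that fell. It encodes the death domain receptor for FASLG. Its brightest probe set, 204780_s_at, read 9.11 and 8.92 with GFP and 8.55 and 8.48 in the ZNF750 arrays (-0.50 ± 0.078, adjusted p = 0.00509). Of 5 FAS probe sets, 4 passed as lower and 0 as higher in the fit over probe sets, with differences from -1.21 to 0.19. The 4 that passed end in _s_at or _x_at, and the remaining one, 233820_at, gave 0.19. FAS did not pass without GFP replicate 1 (0.0872) or GFP replicate 2 (0.055). LTBR, the receptor for the lymphotoxin complex, differed by -0.12 ± 0.059 and did not pass (adjusted p = 0.192).

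**Figure D4:**
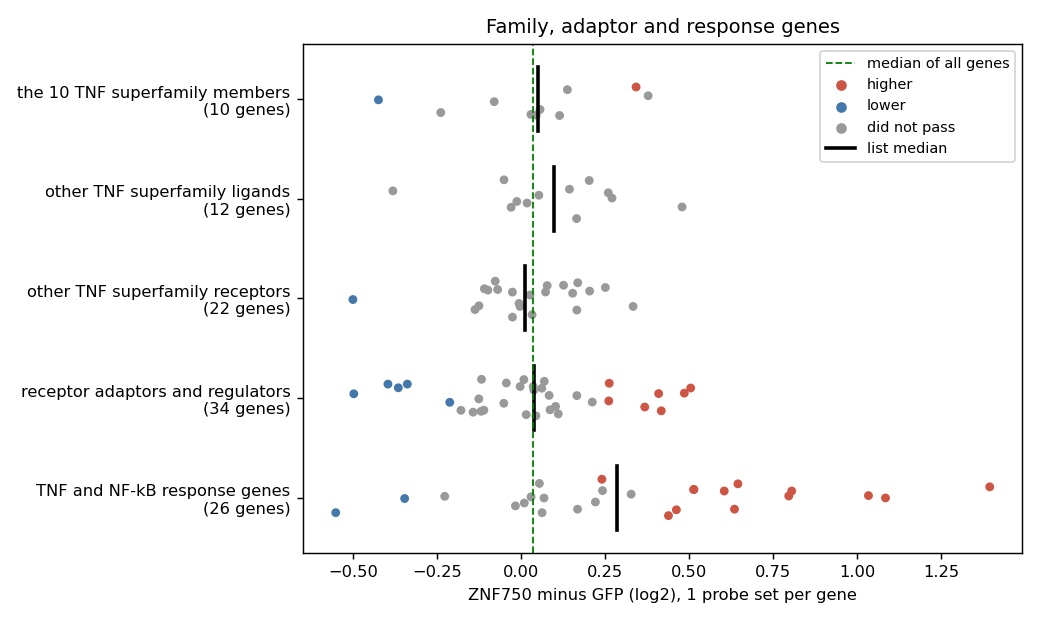
Difference ZNF750 minus GFP on the log2 scale (x axis) for each gene of 5 lists (y axis), each gene by its brightest probe set; red and blue points passed as higher and lower, grey points did not pass, black bars are list medians and the green dashed line is the median of all genes. The response genes reach to 1.39 with a median of 0.29, while the medians of the other 4 lists lie between 0.01 and 0.10.

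Adaptors and regulators moved both ways. Of 37 listed 34 were matched; 7 were higher, 5 lower and 22 did not pass, a called share of 35.3% with a median of 0.04. CASP8, the initiator caspase of death receptors, was higher by 0.50 ± 0.064 (adjusted p = 0.00238) on 213373_s_at, while its other probe sets gave 0.28 and -0.13 and did not pass. FADD, the adaptor that brings CASP8 to the receptors, was lower by 0.36 on the log2 scale (-0.36 ± 0.079, adjusted p = 0.018). FADD did not pass without an intensity trend in the variance prior (limma adjusted p = 0.0899). Its difference was -0.25 without ZNF750 replicate 1 and -0.48 without ZNF750 replicate 2. MAP3K14, the kinase of the noncanonical NF-kB pathway, was also lower (-0.50 ± 0.077, adjusted p = 0.00499). TAB3 (0.49 ± 0.053), which links ubiquitin chains to the kinase MAP3K7, RBCK1 (0.41 ± 0.038), a subunit of the linear ubiquitin ligase, and TNIP1 (0.42 ± 0.048), a partner of TNFAIP3, were higher. RBCK1 passed on 1 of 3 probe sets and TNIP1 on 1 of 2. Of 4 TAB3 probe sets 3 passed as higher. CFLAR, which blocks CASP8 at the receptor, did not pass (0.06 ± 0.075, adjusted p = 0.624), and 1 of its 14 probe sets, which ranged from -0.20 to 0.55, was called higher. ADAM17, which sheds TNF, differed by 0.04 ± 0.067 on its brightest probe set (adjusted p = 0.701), while its others gave -0.21 and -0.57 and did not pass either (0.236 and 0.0569 over probe sets). BIRC3, RIPK1 and TRAF2 were not matched and are not analysed here. With either GFP array left out 0 adaptors passed (limma); 4 were higher and 2 lower with the first ZNF750 array left out, and 5 and 3 with the second left out. With the mean of probe sets 3 were higher and 6 lower. Only 2 of the 34 matched adaptors were dim, with a mean under 5. The share of 18.0% over all genes is therefore not matched to them in brightness. With dim rows left out, 7 of 32 adaptors were higher and 5 lower. In that same fit 1582 of 14222 genes were higher and 2257 lower, a larger called share than 18.0%. Whether adaptors were called more often than genes of equal brightness was not tested.

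Of the genes known to be induced by TNF and NF-kB, 22 had positive differences and 4 negative ones, against 11354 positive of all 19775 genes. Of 28 listed 26 were matched; 13 were higher, 2 lower and 11 did not pass, a called share of 57.7% with a median of 0.29. The list was written with earlier results of these data known, so its direction is not independent evidence. LCN2, a secreted iron-siderophore binding protein, read 10.48 on both GFP arrays and 11.91 and 11.85 on the ZNF750 arrays (1.39 ± 0.042, adjusted p = 1.19e-05). PTGS2, the inducible cyclooxygenase, was higher by 1.08 ± 0.079 and SOD2, the mitochondrial superoxide dismutase, by 1.03 ± 0.053. SOD2 was read by 1566342_at and LCN2 by 212531_at, the only probe sets of these genes with a single symbol. The cytokine IL1B was higher by 0.81 ± 0.074, on both of its probe sets, and the chemokine CXCL2 by 0.80 ± 0.089, on 1 of 3 probe sets. The 2 lower genes were NFKB1 and PLAU, named here after their values were seen. NFKB1 differed by -0.55 ± 0.087 on its only probe set (limma adjusted p = 0.00537). PLAU differed by -0.35 ± 0.063 on its brightest probe set (limma adjusted p = 0.009) and was lower on both. Over all genes the called share was 18.0%.

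TNFAIP3, a ubiquitin editing enzyme, was higher by 0.24 ± 0.049 (adjusted p = 0.014) on 202644_s_at, its other probe set gave 0.03, and the mean of both did not pass (0.149). TNFAIP3 also did not pass with any 1 array left out (adjusted p from 0.0533 to 0.143). NFKBIA, which holds NF-kB in the cytoplasm, read 10.31 and 10.57 with GFP and 10.47 and 10.76 in the ZNF750 arrays, groups that overlapped, and differed by 0.17 ± 0.11 (adjusted p = 0.338). Without GFP replicate 1, 3 response genes were higher and 0 lower, and without GFP replicate 2, 4 and 0; LCN2, PTGS2 and SOD2 passed in both. With the first ZNF750 array left out 11 were higher and 2 lower, and with the second left out 11 and 1. Without probe sets ending in _s_at or _x_at 17 response genes were measured, of which 7 were higher and 1 lower. With dim rows left out, 13 of 23 response genes were higher and 2 lower, against 1582 and 2257 of 14222 genes. Of the 7 matched squamous line markers, KRT14, KRT5 and EPCAM were also higher on the ZNF750 arrays. CDKN2A was lower, and the other 3 did not pass. The summed leukocyte and fibroblast markers and the ACTB and GAPDH 3′ minus 5′ gaps were higher too. The part of these markers and gaps in the counts of response genes was not tested.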

How the data were processed

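CaSki RNA was measured on 4 arrays, 2 per group. The authors deposited 1 table of log2 values for 54675 probe sets; they were made with RMA, per the submitters' processing notes, which give no version. RMA corrects background, quantile normalizes and summarises each probe set, and compresses dim signals. The number of arrays limits the precision.

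The 62 control probe sets were left out. Symbols came from the platform annotation: 41091 probe sets had 1 symbol, 1801 several and 11721 none. Of those with 1 symbol, 41037 matched RefSeq by Entrez identifier. No protein sequences or genome were used.

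Differences (ZNF750 minus GFP) came from limma 3.58.1, run in R 4.3.3 (eBayes with an intensity trend, 2 residual degrees of freedom), once over 54613 probe sets and once over 19775 genes, each by its probe set with the highest mean. Benjamini-Hochberg adjustment covered all rows, and an adjusted p under 0.05 was called. Adjusted p-values of members are from the first fit unless stated, and those of other genes from the second. Errors after ± are limma standard errors unless marked SD. The fit was tested on simulated data.

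Members and lists were chosen with earlier results of these data known. All member probe sets are named, with up to 5 called genes of each list by absolute difference and 14 genes fixed by name. CD70, NFKB1 and PLAU were named after their values were seen. The alternatives covered the variance prior, normalization, centring, dim rows, pairing, rows tested, thresholds, the probe set of a gene and leaving out each array. No rules for outliers or for differences between contrasts were applied, since each group has 2 arrays.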

Additional observations from a re-analysis of the deposited data

How the results depend on the processing

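Of 222 refits of single member probe sets, 186 kept both their direction and their side of the threshold, 24 lost a call, 3 gained one and 9 changed sign; none of the 5 called probe sets changed sign. The 5 called probe sets became 2 at an adjusted p under 0.01, 2 with a difference of at least 0.5, 1 without an intensity trend and 0 to 1 with an array left out. TNFSF10 214329_x_at passed with dim rows left out (0.0437), after centring on brighter rows (0.0151) and with the replicate block (0.0194). Signs changed for uncalled probe sets only: TNFRSF9 211786_at gave -0.046 after cyclic loess and -0.048 after a second quantile normalization, and -0.093 to 0.14 with an array left out; TNFRSF10D 210654_at gave 0.024 after centring and -0.28 to 0.20 with an array left out (0.00039 without ZNF750 replicate 1); with an array left out TNF gave -0.074 to 0.30, TNFRSF9 238950_at -0.0080 to 0.28 and TNFRSF12A -3.04e-05 to 0.059. In the fit over genes, 1 member was higher and 1 lower: 0 were higher without an intensity trend or at an adjusted p under 0.01, 2 were lower with the mean of probe sets, and with an array left out 0 were higher and 0 to 1 lower. Of the other ligands 1 was lower after cyclic loess or a second quantile normalization, 1 higher after centring, and 0 to 1 higher with an array left out. Of the other receptors 0 were lower without _s_at and _x_at probe sets and 0 to 1 with an array left out. Adaptors that were lower numbered 2 without an intensity trend, 2 at an adjusted p under 0.01 and 0 to 3 with an array left out, and those higher 3 with the mean of probe sets, 3 without _s_at and _x_at probe sets and 0 to 5 with an array left out. Response genes that were lower numbered 1 without an intensity trend, 1 without _s_at and _x_at probe sets and 0 to 2 with an array left out; those higher numbered 7 without _s_at and _x_at probe sets and 3 to 11 with an array left out. The fits with an array left out held fewer arrays, and the fit without _s_at and _x_at probe sets held fewer genes. The cause of the changed counts was not tested. Of all called probe sets 3927 were lower and 2348 higher, but 3710 and 3141 after cyclic loess, 3630 and 3204 after a second quantile normalization and 3493 and 4467 after centring. Without an intensity trend the counts were 754 and 520. Labels give no pairing beyond shared replicate numbers, and deviations of same-numbered arrays correlated at 0.134 over probe sets. With the replicate block 5 member probe sets were called: TNFSF9 was lost (0.0723) and TNFSF10 214329_x_at gained; NFKBIA passed in the fit over genes (0.0336).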
